A study of Homo sapiens with 10 samples.

Results

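AQR and MTREX, the genes of 2 RNA helicases of the nucleus, are described here across 10 clones of the human prostate cancer cell line PC-3. They were chosen by their symbol in the platform table, out of 14884 named genes, and because earlier results of these data showed both among the highest differences between the groups. Each gene had 1 row in the deposited table. The first group was 5 clones of PC-3 cells that received a lentiviral vector carrying CENPU (clones 1, 4, 5, 7 and 13), and the second was 5 clones with the empty vector (clones 1 to 5). Both groups had been through blasticidin selection and clonal growth, and RNA of each clone was hybridised to 1 Affymetrix array. PC-3 is an established line grown from a bone metastasis, CENPU encodes a centromere protein, and the sources used here do not name the promoter that drives CENPU in the vector. Each clone is a separate isolate, so differences between clones that arose before or during cloning are part of the spread. The arrays measured RNA of whole cultures, in which fewer cells expressing a transcript and less of it per cell cannot be told apart.

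AQR, also called Aquarius or IBP160, is a helicase of the UPF1-like family. It sits in the spliceosome as the core of the intron-binding complex, which contacts the intron just upstream of the branch site. Its work has been tied to assembly of box C/D small nucleolar ribonucleoproteins from introns, to loading of the exon junction complex and to the removal of R-loops, the hybrids of RNA with its template DNA. MTREX, also called MTR4 or SKIV2L2, is a helicase of the Ski2-like family that unwinds RNA and threads it into the nuclear RNA exosome, a complex that trims and degrades RNA from the 3′ end. Adaptor complexes known as NEXT, PAXT and TRAMP bring different RNAs to it.

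The genes lie on different chromosomes and had nearly equal genomic spans in the RefSeq table of GRCh38.p14. AQR spans 117961 bases at chr15:34851782-34969742, and MTREX spans 117591 bases at chr5:55307989-55425579. Their promoter windows are shown because the genes moved together across the clones. Each runs 5′ to 3′ along the gene, from 250 bases before its start to 50 bases after it, and is taken from RefSeq with build GRCh38.p14. The AQR window is chr15:34969693-34969992 on the minus strand, and the MTREX window is chr5:55307739-55308038 on the plus strand. Capitals mark the matches, on either strand, to 8 common promoter motifs.
AQR promoter: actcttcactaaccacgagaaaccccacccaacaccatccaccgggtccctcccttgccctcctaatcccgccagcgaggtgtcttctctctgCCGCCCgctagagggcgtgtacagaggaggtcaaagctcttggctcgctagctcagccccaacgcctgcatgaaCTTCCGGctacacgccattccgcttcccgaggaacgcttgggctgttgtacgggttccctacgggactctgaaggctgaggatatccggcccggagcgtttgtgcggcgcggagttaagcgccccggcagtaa
MTREX promoter: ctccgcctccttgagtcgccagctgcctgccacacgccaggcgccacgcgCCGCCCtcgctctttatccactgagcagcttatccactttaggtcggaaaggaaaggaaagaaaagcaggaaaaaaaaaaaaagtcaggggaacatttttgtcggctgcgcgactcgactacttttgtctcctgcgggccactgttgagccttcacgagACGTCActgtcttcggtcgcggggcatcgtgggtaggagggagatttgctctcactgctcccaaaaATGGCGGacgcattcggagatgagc
The motifs searched were CCGGAAG (ETS), ATGGCGG (YY1), TGACGT (the core of the cAMP response element), GGGCGG (GC box), the CCAAT box, the TATA box in the form TATAAA, the E box in the form CACGTG, and the NRF1 motif. They were sought on both strands, and no matches overlapped in either window. The GC box letters were in both windows, 157 bases before the start of AQR and 200 bases before that of MTREX, and in 45% of all 35116 windows of that length. The ETS letters lay 83 bases before the AQR start, and 10.3% of windows held them. The MTREX window held the cAMP response core 41 bases before the start and the YY1 letters 26 bases after it, which 7.98% and 5.55% of windows hold. The GC content was 61.7% in the AQR window and 56% in the MTREX window, against a median of 58.7% over all windows. Such matches are letters in a window and were not tested for binding of any factor.

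AQR was higher in every CENPU clone than in any control clone. Its log2 expression was 7.71, 8.30, 8.70, 9.12 and 9.42 in CENPU clones 1, 4, 5, 7 and 13, against 6.97, 6.43, 7.13, 6.74 and 6.77 in control clones 1 to 5. The groups did not overlap, with 0.58 between the lowest CENPU clone and the highest control clone. The means were 8.65 ± 0.68 in CENPU clones and 6.81 ± 0.27 in control clones (SD, n = 5 each). The difference was 1.84 on the log2 scale, with a standard error of 0.28, or 3.58-fold. The CENPU clones spanned 1.71 log2 units, more than the 0.70 units of the control clones.

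MTREX showed the same separation with a much narrower gap. Its log2 expression was 6.61, 7.69, 7.76, 8.02 and 8.55 in CENPU clones 1, 4, 5, 7 and 13, against 6.36, 4.82, 6.50, 6.09 and 6.29 in control clones 1 to 5. CENPU clone 1 lay only 0.12 above control clone 3, and control clone 2 lay far below the other control clones. The means were 7.73 ± 0.71 in CENPU clones and 6.01 ± 0.68 in control clones (SD, n = 5 each). The difference was 1.71 on the log2 scale, with a standard error of 0.37, or 3.28-fold. Without control clone 2 the difference was 1.42.

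**Figure D1:**
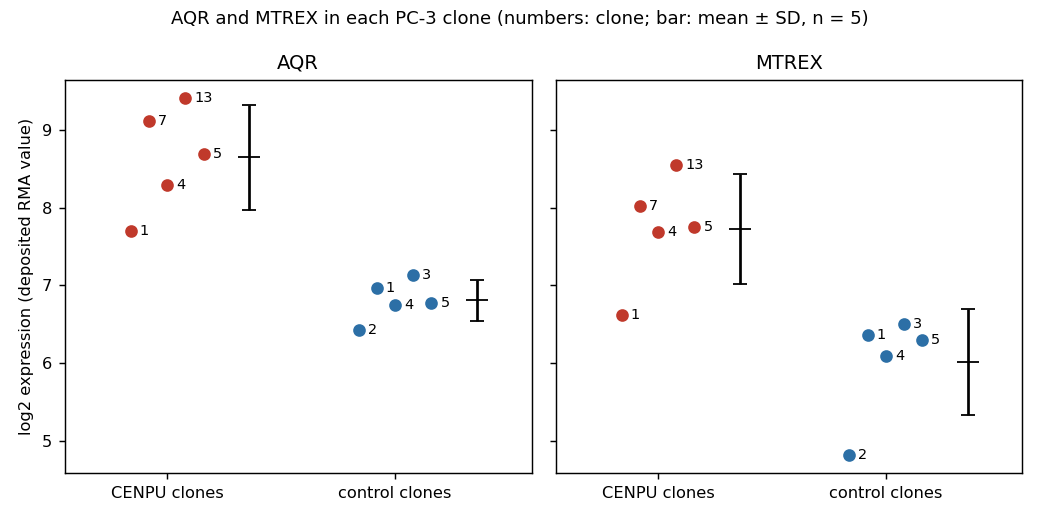
Deposited log2 expression of AQR and MTREX in each clone, CENPU clones left and control clones right, with the clone number beside each point and the mean and SD (n = 5) as bars. The groups do not overlap for either gene, and the gap is 0.58 for AQR and 0.12 for MTREX.

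Because the genes were chosen on this contrast, no test of it is given. Ranked from the highest difference among the 14884 genes, AQR was number 8 and MTREX number 12. At a limma adjusted p under 0.05, the threshold used here for a pass, 10.1% of all genes passed in either direction, 5.31% were higher in CENPU clones and 4.79% lower. The groups did not overlap for 9.73% of genes, 4.54% with the CENPU clones higher. CENPU itself averaged 9.34 ± 0.43 in CENPU clones and 6.26 ± 0.29 in control clones (SD, n = 5 each), and every clone fitted its label. The epithelial markers KRT8, KRT18, KRT19 and EPCAM differed by -0.03, -0.21, 0.34 and 0.85 and did not pass (limma adjusted p = 0.9, 0.405, 0.184 and 0.0839), while the mesenchymal filament VIM rose by 0.74 (limma adjusted p = 0.00446). The fibroblast marker DCN stayed at or below 2.99 in all clones, but the endothelial markers were not as low. PECAM1 lay at 4.88 to 6.21 in CENPU clones and 4.97 to 5.34 in control clones. VWF lay at 4.18 to 4.60 in CENPU clones and 4.41 to 4.77 in control clones. The prostate luminal genes KLK3 and KLK2 lay between 5.33 and 5.78 in all clones. CDH1 and the leukocyte markers had no named row here.

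The clones within each group followed one order for both helicases. Clone 13 was the highest CENPU clone for AQR and for MTREX, followed by clones 7, 5, 4 and 1, and among the controls the order was clone 3, 1, 5, 4 and 2 for MTREX. AQR had the same order in the controls. With 1 array per clone, neighbours in these orders have no spread of their own, and MTREX in CENPU clones 4 and 5 differed by less than 0.1. After each group mean was subtracted, the Pearson correlation of AQR with MTREX over the 10 clones was 0.87. It ran from 0.77 to 0.96 when each clone was left out in turn. A correlation this high was common in these arrays: 7.44% of all genes followed AQR at least as closely as MTREX did, and 3.33% followed MTREX at least as closely as AQR did. The CENPU transcript followed them less, at 0.26 with AQR and 0.51 with MTREX.

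In the CENPU clones that was also the order of a trend that runs through many genes. In each clone, the deviation of protein-coding genes from the mean of all clones was correlated with genomic span. Spearman's coefficient was -0.16, -0.04, 0.20, 0.32 and 0.36 in CENPU clones 1, 4, 5, 7 and 13, against -0.09, -0.36, -0.16, -0.28 and -0.16 in control clones 1 to 5. Control clone 2 was the lowest of its group in this coefficient and in both helicases. The group means were 0.135 ± 0.226 in CENPU clones and -0.211 ± 0.105 in control clones (SD, n = 5 each). Within the groups, AQR followed this coefficient with a correlation of 0.96 and MTREX with 0.84. With the span trend removed from each array by loess, AQR differed by 1.62 and MTREX by 1.49, and their correlation was 0.80. Without control 2, CENPU 7 and CENPU 13, where the trend was steepest, AQR differed by 1.33 and MTREX by 1.04. The part of this trend in the difference of either gene was not tested beyond these values.

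**Figure D2:**
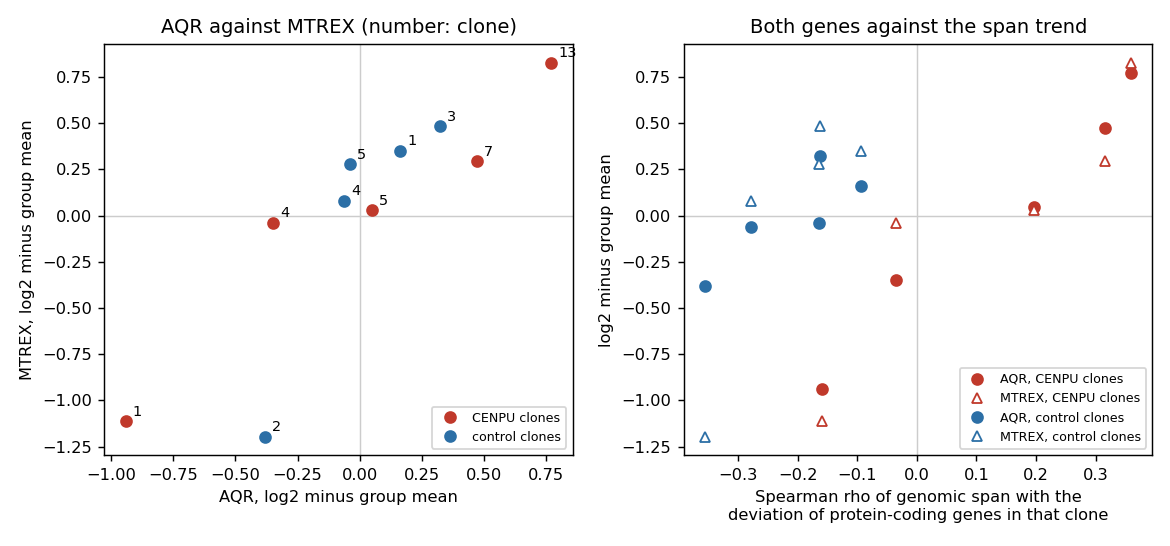
Left, AQR against MTREX in each clone as log2 expression minus the mean of its group, with clone numbers. Right, both genes, on the same scale, against the Spearman coefficient of genomic span with the deviation of protein-coding genes in that clone. CENPU clone 13 is the highest point in both panels, and control clone 2 is the lowest for MTREX and CENPU clone 1 for AQR.

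The genes most like AQR in this measure were HEATR5A (0.993), SCAMP1 (0.990), USP24 (0.989), NIPBL, the cohesin loader (0.987), and DDX50, a nucleolar DEAD-box helicase (0.987). Those most like MTREX were SMC3, a cohesin subunit (0.979), BBS2 (0.978), SACM1L, a phosphoinositide phosphatase (0.974), TM9SF3 (0.973) and CEP57, a centrosome protein (0.972). These are group-centred Pearson correlations over the same 10 clones, and they share the arrays and the trend described above. They were chosen as the highest after some kinds of symbol, such as locus identifiers and small RNAs, were set aside. Group-centred correlations of 0.8 or more were found for 1870 genes with AQR and 1244 genes with MTREX.

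The machinery around AQR was measured in 51 of the 76 genes listed for it. Of these, 11 rose, 1 fell and 39 missed the threshold. Their median log2 difference was 0.25, against -0.02 over all genes. Their median group-centred correlation with AQR was 0.63, against -0.16 over all genes, so many of them shared the order of the clones. The share that passed was 23.5%, against 10.1% of all genes and 11.7% of protein-coding genes, of which 6.23% were higher and 5.43% lower. The lists here and below were drawn up with earlier results of these data known, so their shares are not independent of these data. Without control 2, CENPU 7 and CENPU 13 the median was 0.12 and the share 11.8%, against 3.16% of all genes (1.4% higher, 1.75% lower). With the span trend removed it was 27.5%, against 10.4% of all genes (5.09% higher, 5.27% lower). With a block by clone number 0 passed, against 0.37% of all genes (0.148% higher, 0.222% lower). The count depended on single clones: 20 passed without CENPU 1, but 6 without CENPU 7, 7 without control 2 and 7 without control 4. Over all 14884 genes 613 to 2471 passed in the fits without 1 clone, so counts shifted over all genes too. The 11 that rose had a median genomic span of 48.6 kb, and the 39 that did not pass one of 22.5 kb.

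The direct partners of AQR in the intron-binding complex did not pass over all clones. XAB2, the scaffold that holds AQR on the complex, had 10.7 ± 0.24 in CENPU clones and 11.0 ± 0.24 in control clones (SD, n = 5 each), a log2 difference of -0.30 that did not pass (limma adjusted p = 0.193). For the prolyl isomerase PPIE the difference was -0.25 (limma adjusted p = 0.136), and for the zinc finger protein ZNF830 it was 0.38 (limma adjusted p = 0.0673). ZNF830 passed without CENPU 1 (0.46, limma adjusted p = 0.0183), with array weights (0.37, limma adjusted p = 0.0424) and with the span trend removed (0.50, limma adjusted p = 0.0488). Nor did PRPF19, the ubiquitin ligase that names the neighbouring Prp19 complex, pass (-0.09, limma adjusted p = 0.557), and ISY1 had no named row here.

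Within the wider Prp19 group, 4 of 14 measured genes rose and 0 fell. The share was 28.6%, against 10.1% of all genes (5.31% higher). Unadjusted p-values were under 0.05 for 9 genes higher and 1 lower. The share of all genes under that unadjusted cut is not given here, so nothing is read from unadjusted counts. The scaffold gene CDC5L had 7.66, 7.77, 8.41, 9.05 and 9.36 in CENPU clones 1, 4, 5, 7 and 13, against 7.16, 6.39, 7.46, 7.31 and 7.57 in control clones 1 to 5. It rose by 1.27 (SE 0.34, limma adjusted p = 0.0358), and its CENPU clones stood in the order they had for AQR. SNW1, the SKIP protein of the activated spliceosome, rose by 1.21 (SE 0.21, limma adjusted p = 0.00665), with at least 7.35 in CENPU clones and at most 7.04 in control clones. PLRG1, a WD-repeat subunit, rose by 0.96 (limma adjusted p = 0.0232), and BUD31, a small zinc-binding subunit, by 0.42 (limma adjusted p = 0.0190). The SNW1 call held in every fit without 1 clone. CDC5L lost its call in 8 of those 10 fits, all but those without CENPU 1 or CENPU 4, PLRG1 without CENPU 7, control 2 or control 4, and BUD31 without CENPU 7. Without control 2, CENPU 7 and CENPU 13 together 1 of the 4, SNW1, passed, and CDC5L differed by 0.57 (limma adjusted p = 0.132).

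Of the other spliceosomal ATPases and their GTPase, 4 of 11 measured genes rose and 0 fell. The share was 36.4%, against 10.1% of all genes (5.31% higher). DHX15, which releases the intron lariat, was 8.30, 8.39, 9.20, 9.36 and 9.56 in CENPU clones 1, 4, 5, 7 and 13, against 7.84, 6.65, 7.33, 7.65 and 7.67 in control clones 1 to 5. Its rise of 1.53 (SE 0.29, limma adjusted p = 0.0101) was the largest in the lists. DHX8, which frees the spliced mRNA, rose by 0.80 (SE 0.11, limma adjusted p = 0.00337), and DDX42 by 1.02 (SE 0.17, limma adjusted p = 0.00613). SNRNP200, the Ski2-like helicase that unwinds U4 from U6 RNA, rose by 0.95 (SE 0.14, limma adjusted p = 0.00401). All 4 kept their calls without each clone in turn and without control 2, CENPU 7 and CENPU 13 together (limma adjusted p from 0.0133 to 0.0341). The other 7 did not pass. Among them DDX46, which acts early in spliceosome assembly, had a difference of 0.91 (limma adjusted p = 0.101), larger than that of DHX8. The rest lay between -0.12 for DHX16 and 0.25 for DHX35.

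The lists for processes to which AQR has been linked hold few measured genes, so their counts are set beside the 10.1% of all genes that passed and nothing is read from a share near it. Of 7 measured exon junction complex genes only CWC22, which brings EIF4A3 to the spliceosome, rose, by 1.16 (limma adjusted p = 0.0369), and 0 fell, a share of 14.3%. EIF4A3, the helicase at the core of the complex, differed by 0.09 (limma adjusted p = 0.549). CWC22 lost its call in all fits without 1 clone other than those without CENPU 1 or CENPU 4. Of 8 measured box C/D snoRNP genes 0 passed in limma. Unadjusted p-values were under 0.05 for 2 higher genes and 0 lower, and nothing is read from these counts. The methyltransferase FBL differed by 0.12 and the chaperone adaptor RPAP3 by 1.10 (limma adjusted p = 0.474 and 0.0681).

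Among 5 measured R-loop factors 1 rose and 1 fell, a share of 40% that rests on 2 genes. DHX9, a helicase that acts on hybrids of RNA and DNA, rose by 1.40 (SE 0.25, limma adjusted p = 0.00912). Its levels were 8.45 to 9.58 in CENPU clones, with a median of 9.24, and 6.85 to 7.93 in control clones, with a median of 7.84. The topoisomerase TOP3B fell by 0.47 (limma adjusted p = 0.0283), and 3 did not pass. Of 6 measured UPF1-like relatives of AQR, HELZ rose by 1.27 (limma adjusted p = 0.0280) and 5 did not pass. That is a share of 16.7%, against 10.1% of all genes. UPF1 itself had a difference of -0.17 (limma adjusted p = 0.287). The DHX9 call held without any 1 clone and without control 2, CENPU 7 and CENPU 13 together. In that fit CWC22, HELZ and TOP3B did not pass (limma adjusted p = 0.221, 0.128 and 0.217). HELZ and TOP3B each lost theirs without CENPU 5, CENPU 7, CENPU 13, control 2, control 4 or control 5, and TOP3B also without control 3.

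The machinery around MTREX was measured in 34 of the 45 genes listed for it, counting SNRNP200 also here as a relative. It had 4 genes that rose, 4 that fell and 26 that did not pass, a share of 23.5% against 10.1% of all genes. Of protein-coding genes 11.7% passed (6.23% higher, 5.43% lower), and in these lists 11.8% were higher and 11.8% lower. The median log2 difference was 0.41 against -0.02 over all genes. The median group-centred correlation of these genes with MTREX was 0.61, against -0.11 over all genes. Without CENPU 1 the count was 16, whereas it was 3 without CENPU 7, control 2 or control 4. It was 5 without CENPU 5, CENPU 13 or control 3, and 4 without control 5. Over all 14884 genes 613 to 2471 passed in the fits without 1 clone, so counts shifted over all genes too. Without control 2, CENPU 7 and CENPU 13 together 4 passed, with a median of 0.11. That share was 11.8%, against 3.16% of all genes. The MTREX lists too were drawn up with earlier results of these data known. The 4 that rose spanned 10.1 to 33.3 kb in the genome and the 4 that fell 5.16 to 16.6 kb. The 26 that did not pass had a median span of 43.9 kb, above the 30.5 kb of those that rose, unlike in the AQR lists.

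**Figure D3:**
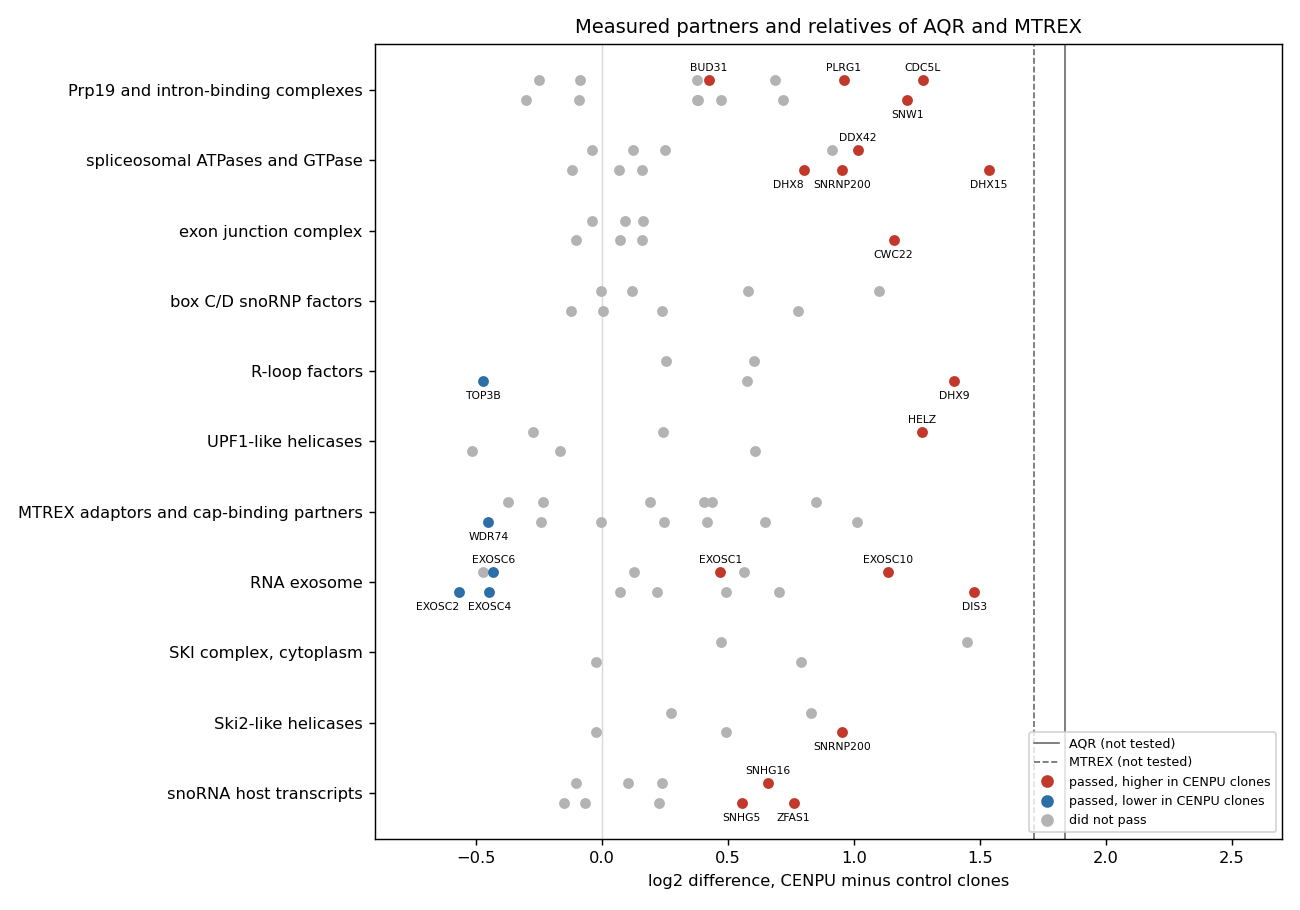
Log2 difference between CENPU and control clones for each measured gene of the lists, coloured by whether it passed (limma adjusted p under 0.05), with the names of those that did. The vertical lines give AQR (1.84) and MTREX (1.71), which were not tested. Every listed gene lies below both, and these 2 were chosen for being among the highest differences, so nothing is read from that.

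The share of adaptor genes of MTREX that passed rests on 1 gene, so nothing is read from how it compares with all genes. Of 13 genes of NEXT, PAXT, TRAMP, the nucleolar adaptors and the cap-binding partners, 0 rose and WDR74, a nucleolar protein that binds the NVL ATPase, fell by 0.45 (limma adjusted p = 0.0300), a share of 7.69% against 10.1% of all genes. Unadjusted p-values were under 0.05 for 6 higher and 4 lower genes, and nothing is read from these counts. RBM7, the RNA-binding subunit of NEXT, was 6.43 ± 0.52 in CENPU clones and 6.24 ± 0.23 in control clones (SD, n = 5 each), a difference of 0.19 (limma adjusted p = 0.622). TENT4B, the poly(A) polymerase of TRAMP, differed by 0.24 (limma adjusted p = 0.555). RBM27 and RBM26, associated with PAXT, had the highest differences of the group, 1.01 and 0.85, and neither passed (limma adjusted p = 0.0637 and 0.0926). The WDR74 call was lost without CENPU 5, CENPU 7, CENPU 13, control 2, control 3, control 4 or control 5. The adaptor gene that passed without control 2, CENPU 7 and CENPU 13 together was NOP53, a nucleolar protein, with 0.65 (limma adjusted p = 0.0407), against 0.40 over all clones (limma adjusted p = 0.114). ZCCHC8, ZFC3H1, PABPN1 and ZCCHC7 had no named row here.

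The exosome genes moved in both directions, with 3 of 13 measured genes higher, 3 lower and 7 that did not pass. The share that passed was 46.2%, against 10.1% of all genes (5.31% higher, 4.79% lower). Without control 2, CENPU 7 and CENPU 13 it was 15.4%, against 3.16% of all genes. EXOSC10, the nuclear exonuclease of the complex, was 9.17, 9.53, 9.78, 9.65 and 9.64 in CENPU clones 1, 4, 5, 7 and 13, against 8.49, 8.17, 8.56, 8.56 and 8.31 in control clones 1 to 5. The groups were far apart, and CENPU clone 1 was again the lowest of its group. EXOSC10 rose by 1.13 (SE 0.13, limma adjusted p = 0.00172), or 2.19-fold, and its call held without each clone in turn and without control 2, CENPU 7 and CENPU 13 (1.01, limma adjusted p = 0.0112). DIS3, the other main nuclease, was 6.35, 7.14, 7.54, 8.29 and 8.79 in CENPU clones 1, 4, 5, 7 and 13, against 6.18, 5.40, 6.65, 6.44 and 6.05 in control clones 1 to 5. CENPU clone 1 lay within the control values there. DIS3 rose by 1.48 (SE 0.40, limma adjusted p = 0.0402), but the call was lost in 8 of 10 fits without 1 clone, all but those without CENPU 1 or CENPU 4. Without control 2, CENPU 7 and CENPU 13 its difference was 0.68 (limma adjusted p = 0.188).

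Of the 9 genes of the exosome barrel and its cap, 1 rose, 3 fell and 5 did not pass, with a median of 0.13. Over all genes 5.31% rose and 4.79% fell. EXOSC2, an RNA-binding cap subunit, fell by 0.57 (SE 0.12, limma adjusted p = 0.0145), with 9.29 to 9.74 in CENPU clones and 9.87 to 10.3 in control clones. The barrel subunits EXOSC6 and EXOSC4 fell by 0.43 and 0.45 (limma adjusted p = 0.0233 and 0.0364), and EXOSC1, a cap subunit, rose by 0.47 (limma adjusted p = 0.0233). EXOSC2 kept its call without each clone in turn and differed by -0.75 without control 2, CENPU 7 and CENPU 13 (limma adjusted p = 0.0131). EXOSC6 lost its call without CENPU 7, control 2 or control 4, and EXOSC1 without these or control 5. EXOSC4 lost its call without CENPU 5, CENPU 7, CENPU 13, control 2, control 3, control 4 or control 5. With the span trend removed, EXOSC6 no longer passed (limma adjusted p = 0.0575).

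**Figure D4:**
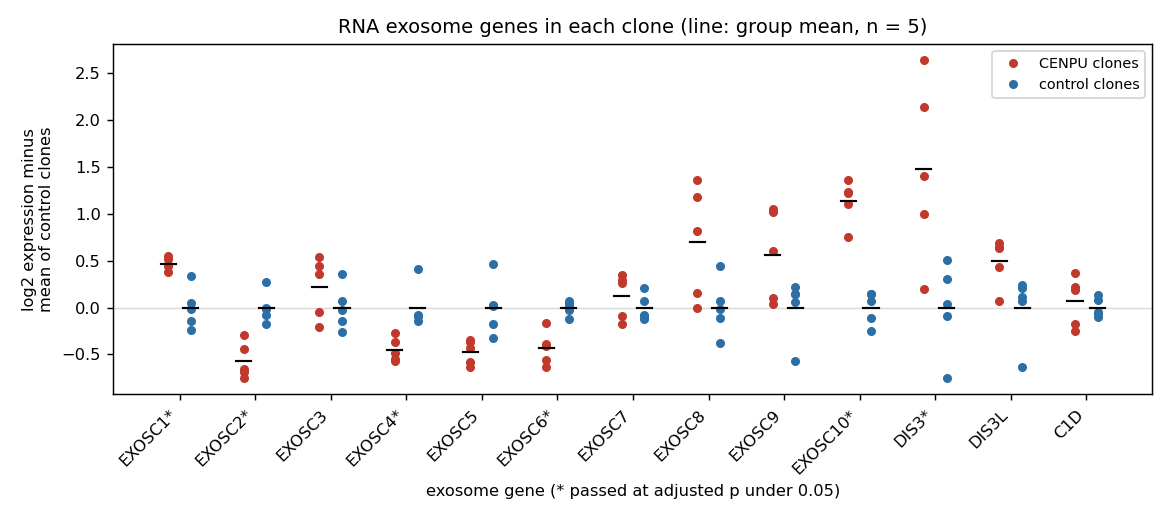
Log2 expression of each measured exosome gene and its cofactor C1D in every clone, minus the mean of the control clones, CENPU clones left and control clones right of each tick, with lines at the group means (n = 5). EXOSC10 and DIS3 stand above the controls on average, by 1.13 and 1.48, while EXOSC2, EXOSC4 and EXOSC6 lie below them.

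The cytoplasmic counterpart of MTREX, SKIC2, is the helicase of the SKI complex that feeds the exosome outside the nucleus. It was 9.11 ± 0.24 in CENPU clones and 9.13 ± 0.16 in control clones (SD, n = 5 each), a log2 difference of -0.02 with a standard error of 0.13 (limma adjusted p = 0.930). None of the 4 measured SKI complex and bridge genes passed in limma, against 10.1% of all genes. Unadjusted p-values were under 0.05 for 3 higher genes and 0 lower, and nothing is read from these counts. SKIC3, the scaffold of that complex, had a difference of 1.45 and a wide spread, with 6.39 ± 0.98 in CENPU clones and 4.94 ± 0.60 in control clones (SD, n = 5 each, limma adjusted p = 0.0544). With the span trend removed SKIC3 passed (1.23, limma adjusted p = 0.0429), and without control 2, CENPU 7 and CENPU 13 its difference was 0.63 (limma adjusted p = 0.273). Among the 5 measured Ski2-like relatives SNRNP200 rose and 4 did not pass, ASCC3 among them (0.83, limma adjusted p = 0.122). That is a share of 20%, resting on 1 gene, against 10.1% of all genes.

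Of the transcripts that host small nucleolar RNAs in their introns, 3 of 9 measured rose and 0 fell. The share was 33.3%, against 10.1% of all genes. Without control 2, CENPU 7 and CENPU 13 it was 11.1%, against 3.16% of all genes. ZFAS1 rose by 0.76 (SE 0.13, limma adjusted p = 0.00599), with 9.18 to 9.68 in CENPU clones and 8.32 to 8.84 in control clones, and kept its call without any 1 clone. SNHG16 rose by 0.66 and SNHG5 by 0.55 (limma adjusted p = 0.0223 and 0.0317), and GAS5 differed by 0.23 (limma adjusted p = 0.339). SNHG16 lost its call without CENPU 5, CENPU 13, control 3 or control 4. SNHG5 lost its call without CENPU 5, CENPU 7, CENPU 13, control 2, control 4 or control 5. ZFAS1 was the host that passed without control 2, CENPU 7 and CENPU 13 together (limma adjusted p = 0.0433). No named row carried a SNORD symbol (0 rows), so the box C/D RNAs themselves are not analysed here.

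The nearest measured protein-coding genes on each side of AQR and MTREX were examined because position was not used in choosing the helicases. Not all of them lie close: the farthest were 1483680 bases from MTREX and 2964897 bases from AQR. MTREX lies head to head with DHX29, a helicase of translation initiation, across 294 bases, and their promoter windows share 206 of 300 bases. DHX29 was 5.60 ± 0.87 in CENPU clones and 4.75 ± 0.28 in control clones (SD, n = 5 each), a difference of 0.85 that did not pass (limma adjusted p = 0.138). It passed without CENPU 1 and differed by 0.19 without control 2, CENPU 7 and CENPU 13. At its other end MTREX overlaps PLPP1, a lipid phosphatase gene, by 726 bases in the RefSeq table. PLPP1 differed by 0.67 (limma adjusted p = 0.0615) and passed without CENPU 1 or control 1, and the sources used here do not say how the array assigns signal in the shared stretch. Of the 10 nearest measured protein-coding neighbours of MTREX, GPX8 rose, by 1.49 (limma adjusted p = 0.0267), 0 fell and 9 did not pass, with a median of 0.18. That is near the 11.7% of protein-coding genes that passed, so nothing particular to the neighbours is read from it. The GPX8 call was lost without CENPU 5, CENPU 7, CENPU 13, control 3, control 4 or control 5, and without control 2, CENPU 7 and CENPU 13 together its difference was 0.81 (limma adjusted p = 0.0693).

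Of the 10 nearest measured protein-coding neighbours of AQR 0 passed in limma, and the median log2 difference was 0.15. Unadjusted p-values were under 0.05 for 2 higher genes and 1 lower. Where 11.7% of protein-coding genes passed, nothing is read from a count of 0 among 10, nor from the unadjusted counts. ZNF770, a zinc finger gene 8598 bases from AQR, was 7.75 ± 0.98 in CENPU clones and 6.88 ± 0.56 in control clones (SD, n = 5 each), a difference of 0.86 (limma adjusted p = 0.208). Without control 2, CENPU 7 and CENPU 13 that difference was -0.0084. LPCAT4, the nearest measured gene on the other side, 484585 bases from AQR, differed by -0.45 (limma adjusted p = 0.0905) and passed without CENPU 4.

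**Figure D5:**
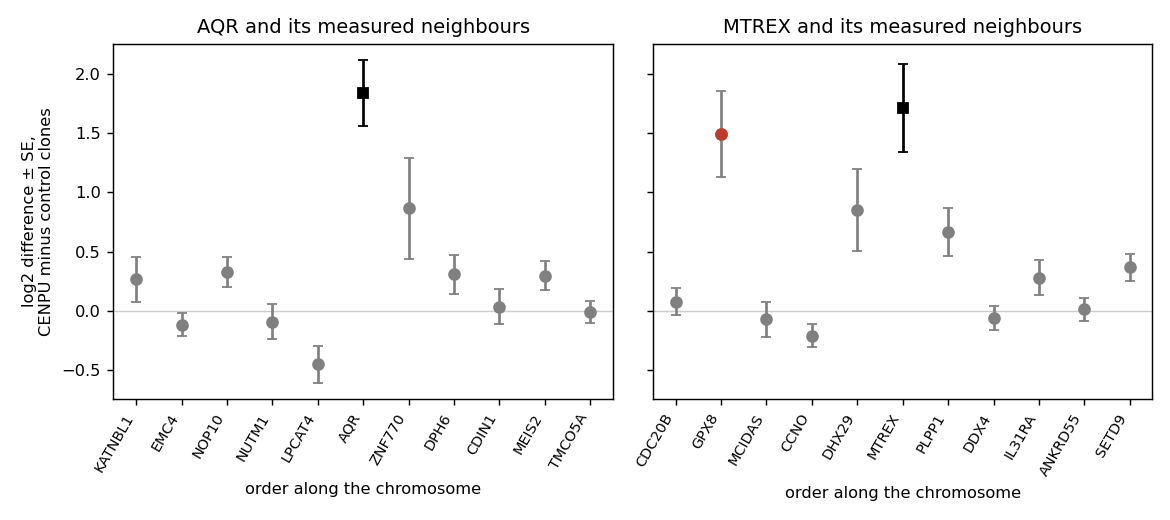
Log2 difference with its standard error for AQR, MTREX (black squares, not tested) and the 5 measured protein-coding genes on either side of each, in their order along the chromosome. GPX8, in red, is the neighbour that passed (limma adjusted p under 0.05).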

How the data were processed

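The deposited table held log2 expression values made by the authors for 53617 probe sets and 10 clones. Per the submitters' processing notes, the tools were Partek and RMA, with no version stated. RMA corrects background, quantile-normalizes and summarises probes, and values of 1.65 to 15.0 were taken to be on a log2 scale. RMA removes shifts shared by most genes, and background makes differences of dim rows too small. Arrays have no read depth, and 5 clones in each group limit the precision. Array medians lay between 4.62 and 4.76.

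Rows were named through the platform table and gene IDs matched to RefSeq (GRCh38.p14): 16098 rows had 1 symbol, 0 several and 37519 none. A gene was represented by its row of highest mean. Groups came from the sample titles. Each row was tested with limma 3.58.1 in R 4.3.3 (lmFit, eBayes, no covariates), with Benjamini-Hochberg adjustment over 16098 rows, and the p-values reflect only clone-to-clone spread. The fit was tested on simulated data.

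The members and gene lists were chosen with earlier results of these data known. Genes named were AQR, MTREX, CENPU, list members that passed (up to 6 per list) and a fixed set of direct partners. Adjacent genes and the 5 most alike were also named. Set aside from the alike genes were locus identifiers, small RNAs, olfactory receptors, numbered open reading frames and symbols beginning with LINC or RNA. Further list members were named after their values were seen. Alternatives were quantile normalization, median centring, a filter on dim rows, all rows, robust eBayes with a trend, array weights, a threshold of 0.01 or 0.10, clone number as a block, removal of the loess span trend, and leaving out clones. The pairing of clone numbers was checked: deviations of same-numbered clones correlated by -0.37, 0.10 and 0.02, so the numbers were not taken as pairs.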

Additional observations from a re-analysis of the deposited data

Results flagged for a closer look

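In a group of 5 clones, a clone was listed when its gap to the nearest other exceeded 0.71 of the range of the group. Chance lists about 5% of groups, and 5 of 74 groups were listed. MTREX in control clone 2, at 4.82, lay below the next control clone at 6.09. DHX9 in control clone 2, at 6.85, lay below the next at 7.79, and HELZ there, at 6.28, below the next at 7.12. EXOSC4 in control clone 2, at 10.2, lay above the next at 9.67. PLPP1 in CENPU clone 1, at 7.72, lay below the next CENPU clone at 8.38. Control clone 2 was thus the clone in 4 of the 5.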

How the results depend on the processing

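The differences of AQR and MTREX kept their direction in all 16 alternatives each. They ran from 1.33 to 2.07 for AQR and from 1.04 to 1.99 for MTREX, against 1.84 and 1.71 in the main fit. Both were lowest without control 2, CENPU 7 and CENPU 13. The group-centred correlation of AQR with MTREX ran from 0.77 to 0.96. Of the 22 list genes that passed, 9 kept their call in every fit without 1 clone and 13 lost it in at least 1.

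Of the AQR list genes, 5 passed at a threshold of 0.01, 6 without control 2, CENPU 7 and CENPU 13 together, and 6 to 20 without 1 clone. For the MTREX lists the counts were 2 at 0.01, 14 at 0.10, 15 with array weights, 4 without those 3 clones, and 3 to 16 without 1 clone. For snoRNA hosts they were 1 at 0.01, 1 without those 3 clones, and 1 to 3 without 1 clone. Among the neighbours of both genes 0 passed at 0.01, 4 at 0.10, 2 with dim rows left out, 4 with array weights, 0 without those 3 clones, and 0 to 4 without 1 clone. Over all genes 253 passed at 0.01, 2588 at 0.10, 470 without those 3 clones and 613 to 2471 without 1 clone. Of all calls, 52.6% were higher on the deposited values, 44.2% after quantile normalization and 43.6% after median centring.

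With the replicate block by clone number, which leaves only clones 1, 4 and 5 of each group informative, 55 genes passed, with 0 of the AQR lists, 0 of the MTREX lists, 0 snoRNA hosts and 0 neighbours. In that fit unadjusted p-values were under 0.05 for 11 higher and 0 lower AQR list genes and for 8 higher and 3 lower MTREX list genes. The share of all genes under that unadjusted cut is not given here, so nothing is read from these counts. AQR differed by 1.41 and MTREX by 1.10 with the block. Directions turned for genes that had not passed. With the block PRPF19 differed by 0.0077, RBM7 by -0.29, SKIC2 by 0.21, TENT4B by -0.0942 and ZNF770 by -0.0067. Without the 3 clones PRPF19 differed by 0.0273, RBM7 by -0.23, SKIC2 by 0.18, TENT4B by -0.19 and ZNF770 by -0.0084. SKIC2 differed by 0.0259 with the span trend removed, and by -0.0968 to 0.0476 without 1 clone. The cause was not tested. Other rows of the same gene were not run as an alternative, since AQR and MTREX had 1 row each.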
